A study of Thermothelomyces thermophilus ATCC 42464 with 4 samples.

Results

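Cytosine methylation was described in 2 stretches of chromosome 1 of the thermophilic fungus Myceliophthora thermophila, one of 51 kb (chr1:902001-953000) and one of 24 kb (chr1:4604001-4628000), which are called the 51-kb domain and the 24-kb domain. They were picked from these same libraries, because in adjoining windows of 1000 bp the mean methylation level was higher in strain ΔlaeA than in the wild type (WT) without a break. Each domain was cut into windows of 250 bp, which gave 204 and 96 windows, or 300 of the 154974 such windows in the genome. The 50 kb on each side of each domain served as the comparison. Since the levels of all 4 libraries chose the domains, levels and differences inside them are descriptions. A test fitted over the whole genome also covered their windows, and its calls there are given only to describe them.

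Mycelium of WT and of ΔlaeA was harvested after 24 h on glucose, and each strain gave 2 libraries for whole-genome bisulfite sequencing. LaeA is a putative methyltransferase and a global regulator of filamentous fungi. The sample titles call the mutant a deletion, its genotype label calls it a knockdown, and the study replaced the coding region of laeA by a marker cassette. Nothing states that the 2 libraries of a strain came from separate cultures, so the p-values below measure only the spread between these libraries, which may be technical.

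In filamentous fungi, DNA methylation sits mostly in repeats and seldom in genes. In Neurospora crassa, the best studied relative, it marks AT-rich DNA left by repeat-induced point mutation, where the protein HP1 binds histone H3 methylated at lysine 9 and brings in the DNA methyltransferase DIM-2, which methylates cytosines in any sequence context. Bisulfite turns unmethylated cytosine into uracil, and only methylated cytosines keep being read as C.

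The deposited lists hold called cytosines and not all cytosines. Each library listed between 1899567 and 2044100 sites at a median depth of 47 to 59 reads, and ΔlaeA replicate 2 was the shallowest. A total of 1326747 sites were listed in all 4 libraries and are called shared sites. A level is the methylated reads over all reads at shared sites, in percent. Because weakly methylated cytosines are not listed, it exceeds the level of all cytosines. Its 95% Wilson interval covers counting error only.

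The 51-kb domain held 9248 shared sites. Their level was 17.0% and 17.1% in WT replicates 1 and 2, and 20.6% and 20.3% in ΔlaeA replicates 1 and 2. Both ΔlaeA libraries therefore lay above both WT libraries, and the WT mean of 17.0% ± 0.0707 (SD, n = 2) was exceeded by 3.43 percentage points, or 20.2% of its value, by the ΔlaeA mean of 20.4% ± 0.266 (SD, n = 2). The 24-kb domain held 3738 shared sites, with levels of 17.3% and 17.0% in WT and 19.4% and 19.6% in ΔlaeA. Here too the strains did not overlap, and the means were 17.1% ± 0.213 (SD, n = 2) and 19.5% ± 0.140 (SD, n = 2), 2.38 percentage points or 13.9% apart. Intervals on these levels reached at most 0.119 and 0.193 percentage points to either side. At the 1313761 shared sites outside both domains the levels were 17.8%, 17.9%, 17.4% and 17.2% in the same order of libraries, so there the mean of ΔlaeA differed from that of WT by -0.501 percentage points. The WT levels of the domains were thus close to those of the rest of the methylated genome, and the ΔlaeA levels were above it.

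Both domains showed the difference in each sequence context. CG is the symmetric dinucleotide, and CHG and CHH are the contexts in which H is any base but G. In the 51-kb domain the CG level was 14.4% and 14.2% in WT and 17.7% and 17.6% in ΔlaeA, the CHG level was 17.5% and 17.6% against 21.3% and 20.9%, and the CHH level was 17.4% and 17.5% against 21.1% and 20.6%. The differences of the means, 3.34, 3.56 and 3.43 percentage points, were nearly equal. In the 24-kb domain the CG level was 13.6% and 13.5% in WT and 15.1% and 15.3% in ΔlaeA, the CHG level was 16.9% and 17.1% against 19.3% and 19.9%, and the CHH level was 17.7% and 17.3% against 19.8% and 20.01%. The CG difference of 1.64 percentage points there was smaller than those of 2.56 in CHG and 2.45 in CHH. The CG and CHG values there rested on only 281 and 276 sites. CG sites were the least methylated in every library and domain. The strands were alike, with differences of 3.40 percentage points on the plus and 3.47 on the minus strand in the 51-kb domain. In the 24-kb domain they were 2.51 and 2.25. The longer run on chromosome 7 was also higher in ΔlaeA, by 2.19 percentage points in CG, 2.03 in CHG and 2.23 in CHH.

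**Figure D1:**
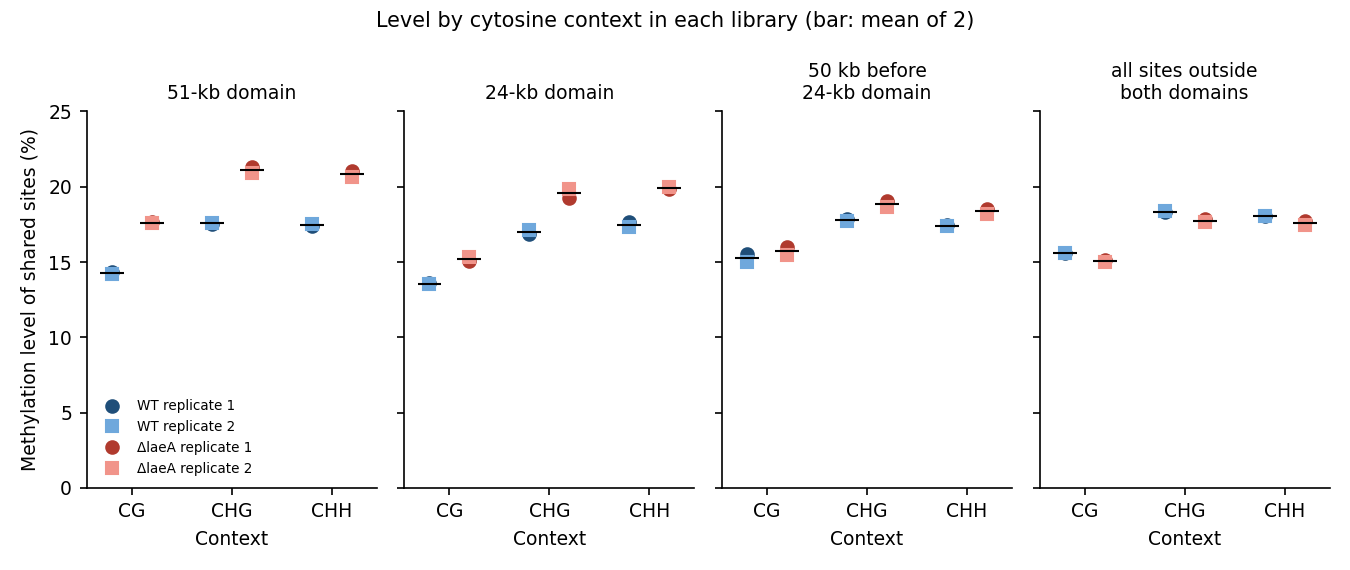
Methylation level of shared sites (percent, y axis) by sequence context (x axis) in the 51-kb domain, the 24-kb domain, the 50 kb on the low-coordinate side of the 24-kb domain and all shared sites outside both domains. Each symbol is 1 library and each bar the mean of 2. The ΔlaeA mean lies above that of WT in all 3 contexts of both domains, by 1.64 to 3.56 percentage points. On the low-coordinate side of the 24-kb domain it lies above by 0.46 (CG) to 1.06 (CHG). Over all shared sites outside both domains it lies below in all 3 contexts.

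CG and CHG sites can be methylated on both strands of the same short sequence. In the 51-kb domain, 278 such CG pairs were shared sites on both strands, and the ΔlaeA mean was higher on both strands in 166 pairs and lower on both in 19. Among 263 CHG pairs the counts were 148 and 24. They were 29 and 11 of 57 CG pairs, and 33 and 6 of 66 CHG pairs, in the 24-kb domain. Pairs lower on both strands were the minority in each context and domain, which follows from how the domains were chosen. The differences on the strands of a pair had a Pearson's r of 0.12 for CG and 0.18 for CHG in the 51-kb domain. In the 24-kb domain r was 0.31 for CG and -0.08 for CHG. No share of pairs over the whole genome is given, so nothing about agreement between strands is read from these counts.

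Single cytosines showed the same shift in small steps. In the 51-kb domain both ΔlaeA libraries lay above both WT libraries at 3278 shared sites and below them at 549, or 35.4% and 5.94%. For the 24-kb domain this held at 1028 and 321 sites, or 27.5% and 8.59%, and outside the domains at 14.8% and 19.2% of shared sites. The median difference of a site was 3.07 percentage points in the 51-kb domain, 2.02 in the 24-kb domain and -0.40 outside. Large differences were few. The ΔlaeA mean was at least 20 percentage points above the WT mean at 79 sites of the 51-kb domain and as far below it at 1, and in the 24-kb domain at 14 and 0 sites. These were 0.854% and 0.0108% of the shared sites of the 51-kb domain and 0.375% and 0% of those of the 24-kb domain. Outside the domains the shares were 0.0751% and 0.147%. The difference was therefore spread over many cytosines of modest methylation.

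At sites covered by 20 or more reads throughout, the largest differences stood near the high-coordinate end of the 51-kb domain. The CHH site at position 952050 on the minus strand had 10 of 39 and 9 of 42 reads methylated in WT, and 27 of 43 and 14 of 26 in ΔlaeA. The CHH site at 951857 on the plus strand had 13 of 67, 18 of 65, 27 of 52 and 23 of 36. At both sites the ΔlaeA libraries exceeded the WT libraries, but with these depths the intervals are wide, 35.5% to 71.2% for ΔlaeA replicate 2 at 952050. In the 24-kb domain the largest difference was at 4627483 on the minus strand, also CHH, with 11 of 31, 9 of 29, 24 of 40 and 17 of 29 reads methylated. All 4 sites with the largest differences in each domain were CHH sites, the context that made up 74.7% and 85.1% of shared sites there.

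Sites were also sorted by their level in WT replicate 1 and the ΔlaeA libraries were compared with WT replicate 2, so that the library used for sorting was not the one compared. In the 51-kb domain the 2124 sites at 5 to 10% in WT replicate 1 had 10.7% in WT replicate 2 and 13.1% and 13.0% in ΔlaeA. The 2084 sites at 20 to 30% had 21.9% in WT replicate 2 and 26.4% and 25.8% in ΔlaeA. The ratio of the ΔlaeA mean to WT replicate 2 ran from 1.10 to 1.23 over the 6 classes in the 51-kb domain and from 1.08 to 1.17 in the 24-kb domain. Outside the domains it ran from 0.957 to 0.994. Weakly and strongly methylated sites of the domains were thus all higher in ΔlaeA, with the largest differences in percentage points in the upper classes, which held 54 and 45 sites at 50 to 100%.

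**Figure D2:**
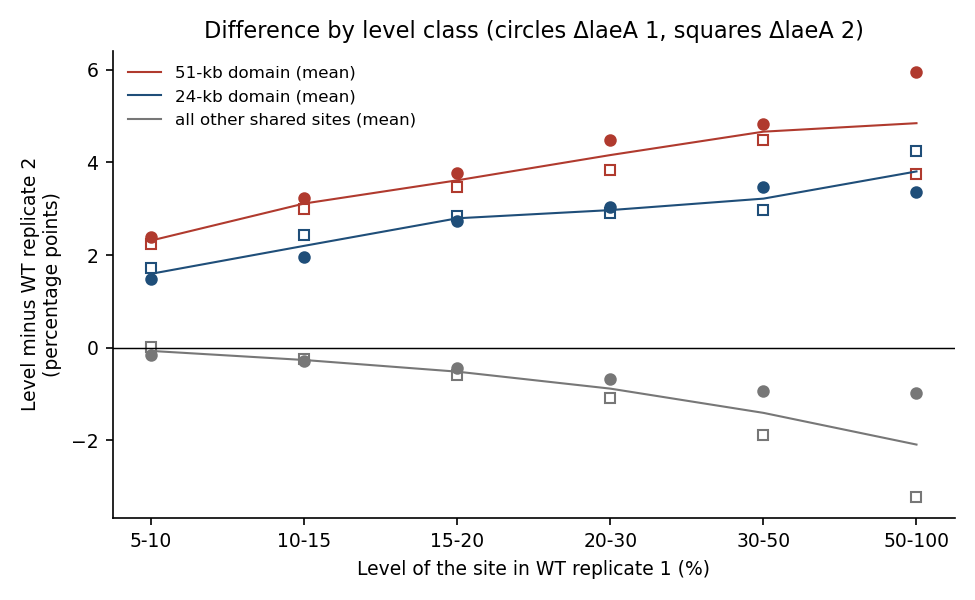
Level of each ΔlaeA library minus that of WT replicate 2 (percentage points, y axis) for shared sites grouped by their level in WT replicate 1 (percent, x axis), in the 51-kb domain, the 24-kb domain and all other shared sites. Circles are ΔlaeA replicate 1, squares ΔlaeA replicate 2 and lines the mean of both. Every symbol of both domains lies above 0, while the means of the other sites lie below 0 in each class.

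More cytosines passed the calling limits of the lists in ΔlaeA. The 51-kb domain had 11800 and 12036 listed sites in WT and 13436 and 12977 in ΔlaeA, and the 24-kb domain had 5063 and 5207 in WT and 5549 and 5261 in ΔlaeA. The means were 10.8% and 5.26% higher in ΔlaeA, whereas outside the domains the mean number of listed sites was lower in ΔlaeA (-3.66%). The numbers outside were 2003835 and 2026857 in WT and 2001652 and 1881329 in ΔlaeA. That lower mean thus came mostly from ΔlaeA replicate 2, the shallowest library. In the 51-kb domain, 641 sites were listed in both ΔlaeA libraries and in no WT library, against 135 listed in both WT libraries only. The corresponding numbers were 223 and 132 in the 24-kb domain, and 54301 and 80260 outside. The sites gained in the 51-kb domain had pooled levels of 8.82% and 8.88% in the ΔlaeA libraries, near the lower limit of the lists. ΔlaeA replicate 2 listed fewer sites than ΔlaeA replicate 1 in both domains, and in the 24-kb domain it listed only slightly more than WT replicate 2.

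Window by window, the quasi-likelihood F-test of edgeR was fitted to all 38541 windows of the genome with at least 10 shared sites and at least 10 methylated reads. Of the 300 windows of the domains 295 could be tested. The 5 others lay at the ends of the 51-kb domain, starting at 902001, 902251, 952251, 952501 and 952751, and held 0 to 3 shared sites. At a Benjamini-Hochberg adjusted p below 0.05, edgeR called 31 of 199 windows of the 51-kb domain and 3 of 96 of the 24-kb domain higher in ΔlaeA and none lower, beside 0.179% of all tested windows called higher and 0.633% called lower. Both ΔlaeA libraries lay above both WT libraries in 163 and 67 windows, beside 12.5% of all tested windows, and below them in 1 window of each domain, beside 27.7%. With each library's own genome-wide level as an offset, edgeR called 42 and 7 windows of the domains higher, beside 0.301% of all tested windows called higher and 0.485% called lower. Nothing is read from these counts, since the domains were selected on this contrast. The median difference was 3.05 percentage points in the 51-kb domain, 2.24 in the 24-kb domain and -0.47 over all tested windows. A tested window of the domains rested on 351 to 4192 reads per library, and the levels of the 2 libraries of a strain differed by a median of 1.22 to 1.76 percentage points, so a window at the median difference stood little above the spread between replicates.

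The difference was uneven along the 51-kb domain. In steps of 3 kb it lay between 2.26 and 3.99 percentage points in the first 14 steps, was 4.53 and 5.27 in the next 2, and reached 9.60 in the last, where the levels were 18.8% and 19.8% in WT and 29.8% and 28.0% in ΔlaeA. Over the last 5 kb the levels were 18.5%, 18.8%, 26.7% and 26.0%, a difference of 7.74 percentage points at 908 shared sites, and the mean depth was 56.4, 58.5, 57.4 and 41.7 reads. Without those 5 kb, a split chosen after the profile was seen, the domain differed by 3.0 percentage points. Positive values along the domain follow from how it was chosen, and the largest were those at its high-coordinate end.

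**Figure D3:**
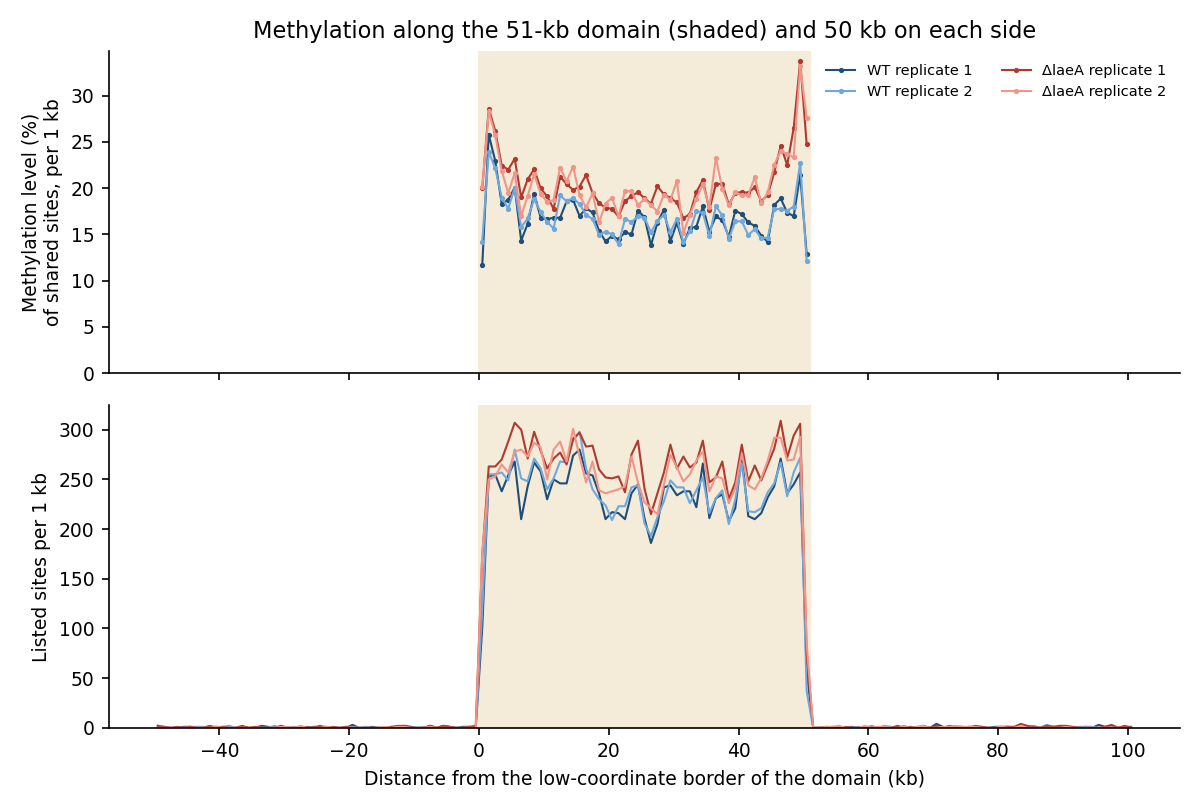
Methylation level of shared sites in percent (upper panel) and number of listed sites (lower panel) per 1 kb in the 4 libraries, against the distance in kb from the low-coordinate border of the 51-kb domain, which is shaded, with 50 kb on each side. Both ΔlaeA lines run above the WT lines through most of the domain and part most at its high-coordinate end, and listed sites fall to near 0 on both sides.

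The largest window difference was in chr1:951751-952000, with 64 shared sites. Its level was 18.0% and 19.6% in WT replicates 1 and 2, and 38.3% and 35.5% in ΔlaeA replicates 1 and 2, a difference of 18.1 percentage points and the largest of all tested windows of the genome. The window before it, from 951501, had 26.9% and 27.2% in WT and 43.0% and 40.9% in ΔlaeA. The window after it, from 952001, had 12.9% and 13.0% in WT and 26.1% and 28.7% in ΔlaeA and was the last that could be tested. These 3 adjoining windows therefore held the peak, and the ΔlaeA libraries exceeded the WT libraries by far more than replicates differed. Next in size were the windows from 950251, with a difference of 8.81 percentage points, and from 951251, with 7.93. At the other end, the first tested window, from 902501, had 12.2% and 14.0% in WT and 19.2% and 19.1% in ΔlaeA. The smallest differences lay inside the domain, in the windows from 917751 (-0.77), 915501 (-0.39) and 930751 (0.14). In the windows from 915501 and 930751 the strains overlapped, and in that from 917751 both ΔlaeA libraries lay below both WT libraries.

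Both ends of the 51-kb domain were sharp. Its shared sites ran from 902455 to 952298, and the 1 kb on either side held no shared site. The 50 kb on the low-coordinate side held 30 and 17 listed sites in WT and 30 and 10 in ΔlaeA, and those on the high-coordinate side 28 and 26 in WT and 40 and 24 in ΔlaeA, with 0 shared sites on both. None of these 400 windows could be tested, so the sides give no level to set against the domain. At the ends, listed sites were more numerous in ΔlaeA: the window from 902251 held 9 and 10 in WT and 38 and 26 in ΔlaeA. In the window from 952251 the numbers were 10 and 4 in WT and 13 and 22 in ΔlaeA. Beyond those windows the lists stayed near empty in both strains, and the nearest 5 kb outside held at most 5 listed sites per library on either side.

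In the 24-kb domain the difference did not climb towards an end. Its 3-kb steps differed by 1.22 to 4.13 percentage points, and the largest, 6 kb from the low-coordinate border, had 13.9% and 14.6% in WT and 18.4% in both ΔlaeA libraries. The 3 called windows were those from 4611251, with 11.5% and 14.3% in WT and 19.4% and 20.1% in ΔlaeA, from 4623751, with 12.1% and 13.6% against 19.3% and 18.9%, and from 4611001, with 15.9% and 15.4% against 19.9% and 22.2%. In each of them the strains did not overlap. The largest difference, 8.01 percentage points in the window from 4626251, was not called. That window had only 19 shared sites and its WT libraries stood at 19.7% and 24.8%, against 31.4% and 29.0% in ΔlaeA. The window from 4626501 differed by 5.46 percentage points and was not called either. The smallest differences were in the windows from 4617251 (-2.31), 4627751 (-1.78) and 4606251 (-1.39). The window from 4627751 is the last of the domain, with 33.8% and 34.1% in WT and 29.4% and 34.9% in ΔlaeA, and the first, from 4604001, had 18.4%, 18.3%, 18.6% and 19.6%.

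**Figure D4:**
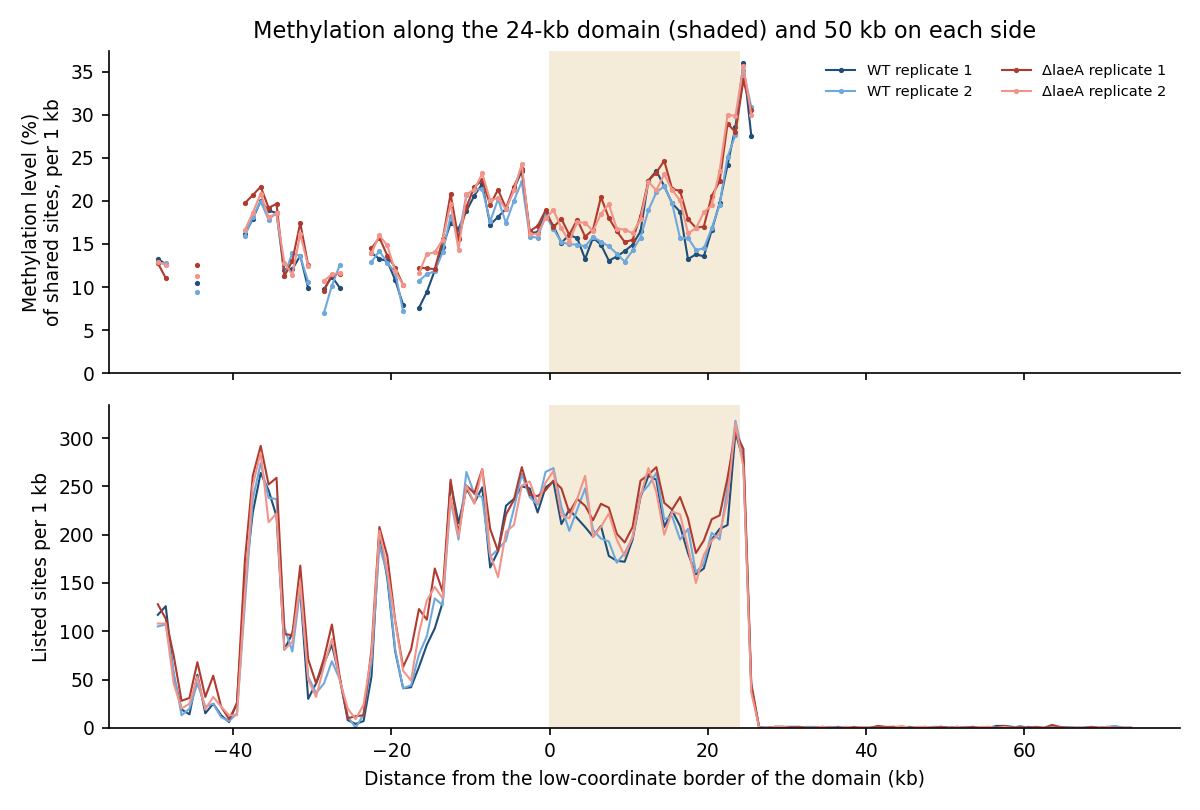
Methylation level of shared sites in percent (upper panel) and number of listed sites (lower panel) per 1 kb in the 4 libraries, against the distance in kb from the low-coordinate border of the 24-kb domain, which is shaded, with 50 kb on each side. Methylation continues past the low-coordinate border, and listed sites fall to near 0 about 2 kb beyond the high-coordinate border.

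The borders of the 24-kb domain lay inside methylated DNA. The 1-kb window just outside the low-coordinate border differed by -0.04 percentage points and the one just inside by 1.04, and at the high-coordinate border the values were 0.82 inside and -0.77 outside. These values follow from how the run was chosen. The 50 kb on the low-coordinate side held 3754 shared sites, with levels of 17.4% and 17.3% in WT and 18.4% and 18.1% in ΔlaeA. The strains did not overlap there either, with a difference of 0.932 percentage points (exact two-sided permutation p = 0.33, the smallest that 2 libraries against 2 can give). The high-coordinate side held 259 shared sites, with 34.6% and 34.4% in WT and 33.4% and 34.8% in ΔlaeA, and the strains overlapped.

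In all, 110 of the 800 windows beside the domains could be tested, 105 of them on the low-coordinate side of the 24-kb domain and 5 on its high-coordinate side. edgeR called 0 of them higher and 0 lower. At an unadjusted p below 0.05 it found 12 of the 110 windows, or 10.9%, higher in ΔlaeA and 0 lower. Over all 38541 tested windows it found 972 higher and 3058 lower, which is 10.5% for both directions together. The share found higher was thus larger beside the domains than over all tested windows. Fisher's exact test was run on the summed reads of each strain and so was blind to replicate spread. It called 17 of the 110 windows higher and 1 lower. Over all 38541 tested windows it called 1635 higher and 4472 lower, or 4.24% and 11.6%. Both ΔlaeA libraries lay above both WT libraries in 34 of the 110 windows and below them in 14, or 30.9% and 12.7%, beside the 12.5% and 27.7% of all tested windows given above. The median difference of these windows was 1.06 percentage points, which lay between that of the 24-kb domain and that of all tested windows.

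Read depth, which the choice of domains did not use, was close between the strains. In the 51-kb domain the mean depth relative to the library median was 1.04 and 1.04 in WT and 1.03 and 1.03 in ΔlaeA, a difference of -0.00997 (exact two-sided permutation p = 0.33, adjusted over the 2 depth tests 0.667). In the 24-kb domain the depth relative to the sides was 1.04 and 1.07 in WT and 1.08 and 0.978 in ΔlaeA, a difference of -0.0253 (exact two-sided permutation p = 1). Relative to the library median, as in the 51-kb domain, it was 0.0169, so its sign depended on the reference. Neither test could have passed 0.05 with 2 libraries against 2. Over single windows the ratio of relative depth, ΔlaeA over WT, ran from 0.819 to 1.22 in the 51-kb domain and from 0.795 to 1.52 in the 24-kb domain, with medians of 0.986 and 1.02.

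The shape of the profile was compared between libraries as a description. Over the 199 tested windows of the 51-kb domain the levels of the WT libraries had a Pearson's r of 0.83 and those of the ΔlaeA libraries 0.85. The differences of ΔlaeA replicate 1 from WT replicate 1 and of ΔlaeA replicate 2 from WT replicate 2, which share no library, had an r of 0.49. Over the 96 windows of the 24-kb domain this r was 0.21, and 0.06 with the WT libraries swapped. The differences along a domain were therefore more alike between libraries in the 51-kb domain than in the 24-kb domain. The r of the 51-kb domain includes the large differences at its high-coordinate end, and no r without that end was computed. Windows of a domain share libraries and neighbours and are not independent.

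The domains were set beside the other long methylated blocks, formed by joining methylated windows of 1000 bp across gaps of up to 2 kb. There were 174 blocks of at least 20 kb, of which 28 had a higher and 146 a lower mean level in ΔlaeA, with a median difference of -0.50 percentage points. The 51-kb domain was a whole block and had the highest difference of all. The 24-kb domain was the high-coordinate part of a block of 49 kb, chr1:4581001-4630000. That block had rank 3 with 1.73 percentage points, after the block of the chromosome 7 run with 2.21. The block of rank 4, on chromosome 5, also stood at 1.73. The high ranks of the domains follow from how they were chosen. The part of the 49-kb block before the domain had 17.6% and 17.5% in WT and 18.6% and 18.4% in ΔlaeA, a difference of 0.892 percentage points. The blocks of at least 10 kb nearest to the 51-kb domain, 385 kb and 143 kb away, differed by -0.30 and 0.12 percentage points. High values were thus not shared by the neighbours of the 51-kb domain on the chromosome.

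**Figure D5:**
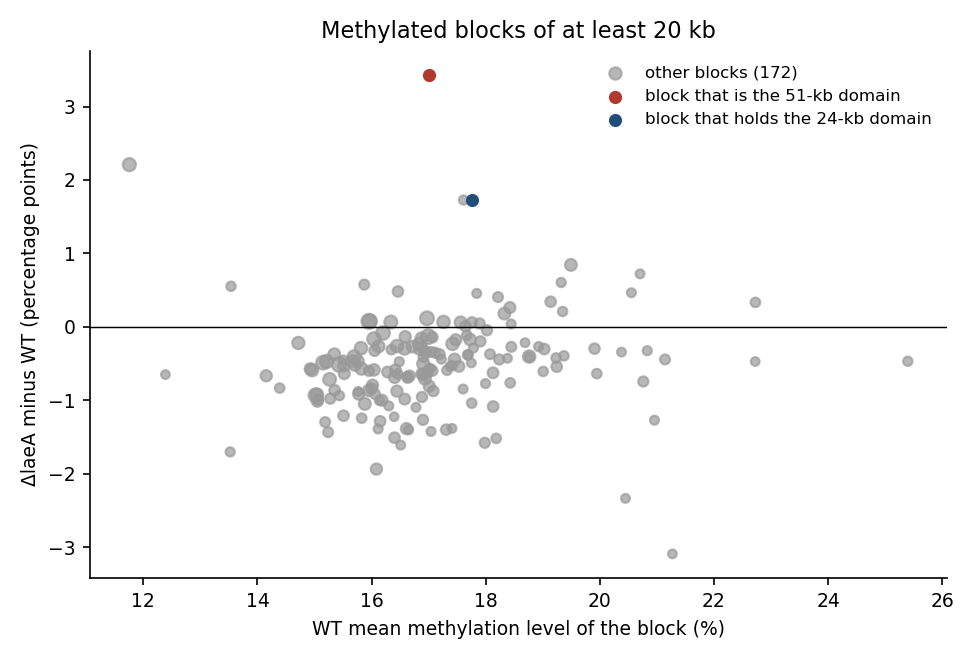
Difference in methylation level, ΔlaeA minus WT (percentage points, y axis), against the WT mean level (percent, x axis) for 174 methylated blocks of at least 20 kb, with symbol area rising with block length. The 51-kb domain stands highest at 3.43, the block that holds the 24-kb domain is at 1.73, and 146 blocks lie below 0.

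In context make-up, which the choice did not use, the domains were unlike each other. CG sites made up 13.3% of the shared sites of the 51-kb domain, the fifth highest share of the 174 blocks, and 7.52% of those of the 24-kb domain, whose block ranked 155. Without these 2 blocks and that of the chromosome 7 run, the median of the remaining 171 was 9.39%. The 51-kb domain held 181 shared sites per kb and the 24-kb domain 156, and the domain and the block ranked 10 and 70 for this density. In the WT mean level, which did enter the choice, they ranked 78 and 47. The outer 2 kb at both ends of the 51-kb domain differed by 7.49 percentage points and its interior, at least 5 kb from either end, by 2.93, and the stretches between were left out of both values. This gap of 4.56 was the largest of the 174 blocks. The same 171 remaining blocks ranged from -5.53 to 3.06 with a median of -0.84. The gap is a description, since the block was selected on the same contrast. The value of 7.49 pools both ends, which were unlike. In the second 1 kb from the low-coordinate end the level was 25.8% and 23.9% in WT and 28.6% and 28.3% in ΔlaeA. In that from the high-coordinate end it was 21.5% and 22.8% against 33.8% and 33.2%.

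Neither domain held an annotated gene of the RefSeq table for assembly ASM22609v1, which lists 9292 genes. The build of the lists is not given in the sources used here, so the table was used only for gene names, neighbours and listed sites at their coordinates. The 51-kb domain lay between MYCTH_2122106 and MYCTH_2294362, with 13 genes in the 50 kb on the low-coordinate side and 15 on the other. The 24-kb domain lay between MYCTH_63472 and MYCTH_2296527, with 3 genes in the 50 kb on the low-coordinate side and 18 on the other. On both sides of the 51-kb domain, and from about 2 kb beyond the high-coordinate border of the 24-kb domain, DNA with many genes was thus nearly free of listed sites. MYCTH_63472, on the low-coordinate side of the 24-kb domain, held 177 and 166 listed sites in WT and 169 and 168 in ΔlaeA. Each of the other nearest genes held at most 3 per library. The laeA gene (MYCTH_2294559) is on the same chromosome, outside both domains and their sides. The table gives no function for these neighbours, so none is described.

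The authors also deposited regions of differential methylation, which were chosen on the same contrast and the same libraries. They cover only short stretches of the domains. The 51-kb domain held 11 regions with lengths adding to 4966 bp and 1233 cytosines, and the 24-kb domain 2 regions with 654 bp and 165 cytosines. All of these were higher in ΔlaeA, beside 67 of the 283 regions of the whole genome. The authors' mean of the CHH region chr1:951326-952385, with 305 cytosines, was 13.8% in WT and 23.5% in ΔlaeA. Their mean of the CG region chr1:951673-952013, with 36 cytosines, was 9.84% and 21.0%. Of the 11 regions, these 2 near the high-coordinate end differed most in percentage points. The CHH region chr1:902248-903030, at the low-coordinate end, differed least, with 5.62% against 9.72%. In the 24-kb domain, the authors' means of the 2 CHH regions were 7.30% against 11.5% and 10.3% against 15.3%. No error belongs to these pooled values.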

How the data were processed

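Mycelial DNA with a spike of lambda phage DNA was sheared by sonication and read in pairs after bisulfite treatment. The submitters' processing notes name FastQC 0.11.5 and Bismark 0.16.3, without roles, and the genome build is not given in the sources used here. For each of 4 libraries the authors deposited methylated and unmethylated read counts per listed cytosine, the level as a fraction, and a p-value and adjusted p-value of the call. In every list the lowest level was 0.05, the lowest depth 5 reads and the fewest methylated reads 2. A table of regions, deposited by the authors, holds pooled mean fractions per strain, region lengths and cytosine numbers. Its columns of scores, a difference and a summed statistic that the authors computed, were not used. Every sample column was mapped to its library.

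Shared sites were summed per 250-bp window, and methylated and unmethylated counts were compared between strains by edgeR 4.0.16 under R 4.3.3 (quasi-likelihood F-test, no dispersion trend, no replicate block, Benjamini-Hochberg over 38541 windows at 0.05). The test was tested on simulated data. Python 3.11.15, numpy 2.4.6, pandas 2.3.3 and scipy 1.17.1 were used for the rest. The domains, comparison regions and lists were chosen with earlier results of these data known. Named were the 5 largest and 3 smallest differences of a domain, its end windows, the 3 largest rises and falls called beside the domains (there were none), and the nearest genes. The CHH sites and the authors' regions were named after their values were seen. Depth in the 51-kb domain was to be taken relative to its sides, which hold 0 shared sites, so the library median was used instead. Alternatives covered window size, site and read minimums, all listed sites, depth, context, strand, library offsets, Fisher's exact test and leaving out each library.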

Additional observations from a re-analysis of the deposited data

How the results depend on the processing

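No alternative reversed the level difference of either domain. Its sign was nearly set beforehand, since the domains were chosen on this contrast in these libraries, so nothing is read from it. The level difference, 3.43 percentage points in the 51-kb domain and 2.38 in the 24-kb domain, was 2.09 and 1.60 over all listed sites and 3.10 and 1.84 with unlisted cytosines at 0. In the 24-kb domain it was 1.64 with CG sites only and 1.46 less that of the sides, an alternative that could not give a value for the 51-kb domain. Chosen after seeing the data, the 51-kb domain without its last 5 kb gave 3.0 and without the outer 5 kb at both ends 2.93. Leaving out 1 library gave 3.24 to 3.62 and 2.23 to 2.53.

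Counts of calls moved with the setting over the whole genome, where 69 windows were called higher and 244 lower, 23 and 67 with all listed sites, 1635 and 4472 by Fisher's exact test, 116 and 187 with a library offset, and 24 to 32 and 54 to 107 when 1 library was left out. At 500 bp they were 72 and 232, at 1000 bp 108 and 360, and with at least 5 sites 76 and 276. Of the 51-kb domain 31 windows were called, 10 with all listed sites, 151 by Fisher's exact test and 6 to 13 when 1 library was left out, lowest without WT replicate 1. Of the 24-kb domain 3 windows were called, 6 at 500 bp, 10 at 1000 bp, 7 with a library offset, 54 by Fisher's exact test and 0 to 2 when 1 library was left out, with 0 without WT replicate 1. Windows beside the domains called higher numbered 0, and 1 with at least 5 sites, 1 with a library offset and 17 by Fisher's exact test, and 0 whichever library was left out. Called lower were 0, 1 by Fisher's exact test and 1 with sides of 100 kb, and again 0 whichever library was left out. With 1 library left out, the lone library of a strain is assumed to vary like the other strain's. The cause of these changes was not tested.

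With the replicate number as a block, edgeR called 40 windows of the 51-kb domain, 6 of the 24-kb domain and 1 beside them higher, and 114 windows of the whole genome higher and 383 lower. The deviations of same-numbered libraries had a correlation of 0.00535 over 38541 windows, which gives no sign of pairing by number. This correlation cannot show how the libraries were prepared.

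The relative depth difference of the 51-kb domain, -0.00997, was -0.0153 with median depth, -0.0165 with all listed sites and -0.196 relative to the few listed sites beside it, and -0.0137 to -0.00622 with 1 library left out. That of the 24-kb domain, -0.0253, changed sign to 0.0169 relative to the library median, 0.0281 with median depth relative to it and 0.00986 with all listed sites relative to it, and ran from -0.0771 to 0.0265 with 1 library left out, positive without ΔlaeA replicate 2. Weakly methylated cytosines are outside the lists.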
